A study of Mus musculus with 24 samples.

Results

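A fetal blood program of 8 genes (Lin28b, Igf2bp1, Igf2bp2, Igf2bp3, Hmga2, Arid3a, Sox17 and Plag1) was followed through bone marrow LSK cells of mouse pups. The genes were chosen by name from what is known of fetal blood formation, as 8 of the 55414 genes listed, and the rule that names them holds no threshold on a measured value. Of these, 7 passed the filter on low counts and Igf2bp1 did not. LSK cells lack lineage markers and carry Sca-1 and Kit, and the population holds blood stem cells and multipotent progenitors. They were sorted by flow cytometry from lineage-depleted marrow of leg and hip bones when the pups were 21 days old, and polyadenylated RNA was sequenced in 24 libraries.

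The 4 groups of 6 libraries were female control, female Western, male control and male Western pups. Control dams received regular chow (2018SX) and Western dams received a diet given to induce obesity (TD.88137). All dams were C57BL/6J mice kept on their diet for 4 weeks before mating and then through pregnancy and lactation. The sire's strain is not labelled. No pup carried a labelled mutation, transgene or direct treatment. The labels place 2 libraries of every group in each of 3 batches but give no dam or litter for any pup. A p-value here therefore measures only how these libraries spread, and that spread may be technical or shared by littermates.

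During development LIN28B binds the precursors of the let-7 family of microRNAs and keeps them from maturing. Mature let-7 represses mRNAs that carry matching sites, several of which encode growth-promoting fetal proteins such as HMGA2 and the IGF2BP family, so the fetal set fades as let-7 accumulates with age. In blood this axis is known for setting fetal against adult output of lymphoid and red cells and for the self-renewal of young stem cells.

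The let-7 motif in the members is described first. Most members are known as let-7 targets and the axis was chosen by name, so the motif's presence in them is a description that the choice largely fixes. A microRNA recognises its targets mainly through its seed, bases 2 to 8. RefSeq (GRCm38.p6) lists 11 mature mouse let-7 names, of which 10 share the seed GAGGUAG and let-7j carries GAGGUAU. Shown 5′ to 3′ with the seed in capitals are the best-known member, a member differing outside the seed, and the exception:
mmu-let-7a-5p: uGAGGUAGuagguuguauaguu
mmu-miR-98-5p: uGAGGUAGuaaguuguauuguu
mmu-let-7j: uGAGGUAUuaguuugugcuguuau

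The reverse complement of the shared seed, CTACCTC, was searched on the transcribed strand of the longest annotated 3′ UTR of each gene (GENCODE M21, GRCm38). It lies in 6 of the 8 members and in 9.02% of 21039 coding genes. Lin28b, Igf2bp1 and Hmga2 hold 4 copies each, Arid3a holds 2, Igf2bp2 and Igf2bp3 hold 1 each, and Sox17 and Plag1 hold none. Long UTRs hold more matches by length alone. Among genes whose UTR is 80 to 125% as long, at least 4 copies occur in 0.295% for Lin28b, 0.331% for Igf2bp1 and 0.123% for Hmga2, and at least 2 copies in 2.35% for Arid3a. At least 1 copy occurs in 12.1% of genes matched to Igf2bp2 and 13.3% of those matched to Igf2bp3. These are the copies in Lin28b and Hmga2, where the motif recurs most per gene among members tested, and in Arid3a, the member with a diet call, with CTACCTC in capitals:
Lin28b site 1: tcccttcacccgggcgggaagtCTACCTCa
Lin28b site 2: acgtacatatacttgttagtaaCTACCTCt
Lin28b site 3: aaattctgtttacagcacatggCTACCTCc
Lin28b site 4: agcttggaaatgatggcaccgaCTACCTCt
Hmga2 site 1: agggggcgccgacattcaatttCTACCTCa
Hmga2 site 2: caataatccccactcctcaataCTACCTCt
Hmga2 site 3: ggacttcctgatttgcaaggaaCTACCTCc
Hmga2 site 4: gttgtacaatcaaaacacactaCTACCTCt
Arid3a site 1: cacatgcaaggcaagtttctttCTACCTCa
Arid3a site 2: aaaaaaaagaaaaaactgttttCTACCTCt

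The single copies in Igf2bp2 and Igf2bp3 complete the tested members that hold the motif:
Igf2bp2 site 1: gagaaaaacacacaaataaaagCTACCTCa
Igf2bp3 site 1: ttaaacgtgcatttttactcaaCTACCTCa

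In GRCm38 these windows of 30 bases run on the minus strand, except for the Arid3a copies on the plus strand. The first Lin28b copy lies at chr10:45381022-45381051 and the first Hmga2 copy at chr10:120364224-120364253. The Arid3a copies lie at chr10:79953888-79953917 and chr10:79954715-79954744, the Igf2bp2 copy at chr16:22059473-22059502 and the Igf2bp3 copy at chr6:49086787-49086816. A match is a description, not a site of repression, and mature let-7 was not measured in these polyA libraries.

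Libraries held 38057263 to 51581968 counts in genes and detected 25673 to 27858 genes. All 12 LSK markers were present, with Cd34 the most abundant in every group. Markers of megakaryocytes and of 5 other cell types were also read, and the most abundant of those 5 lists were Elane (neutrophil), Vcam1 (macrophage and dendritic), Il7r (T and NK), Pecam1 (endothelial) and Col1a1 (stromal and bone), while Gp1bb and Ly6g had a median of 0 counts. In the diet average edgeR called 0 genes of the megakaryocyte list, of these 5 lists and of the LSK list, with 1 to 5 genes of each under an unadjusted p of 0.05 and at most 1 of each called by DESeq2 or by limma-voom. In females the LSK markers Mecom and Meis1 and the stromal and bone marker Runx2 were called as higher in the Western group, and 0 of these lists' genes without the pair described next. Both female control libraries of batch 3 stood apart on the first principal component of all genes tested, at -90.95 and -72.42 against -29.35 to 41.85 in the other 22 libraries. Results that rest on that pair are given with and without it. In bulk RNA, fewer cells of a type and less RNA per cell cannot be told apart.

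Hmga2 and Igf2bp3 were the most abundant members, and Igf2bp1 was the least. Library-scaled counts (CPM, read counts scaled to the same total) were divided by the length of each gene's exons in kb to set genes beside each other. Over 24 libraries Hmga2 stood at 6.80 ± 2.16 CPM per kb (mean ± SD, n = 24) and Igf2bp3 at 6.41 ± 0.919. Neither of these was above the other beyond their spread, since Hmga2 was the higher in 12 of 24 libraries. Arid3a followed at 4.07 ± 0.906 CPM per kb and lay below Igf2bp3 in all 24 libraries. Plag1 stood at 0.834 ± 0.201 and Igf2bp2 at 0.561 ± 0.134 CPM per kb, with Plag1 the higher in 18 of 24. Lin28b, at 0.294 ± 0.093 CPM per kb, was below Igf2bp2 in all 24 libraries, and Sox17, at 0.0515 ± 0.0284, was below Lin28b in all 24. Igf2bp1, at 0.00968 ± 0.00765 CPM per kb, was below Sox17 in 23 of 24.

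The same levels per kb placed Hmga2 and Igf2bp3 at the 67th and 65.9th percentile of the genes tested, while Lin28b lay at the 17.6th and Sox17 at the 2.12th.

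**Figure D1:**
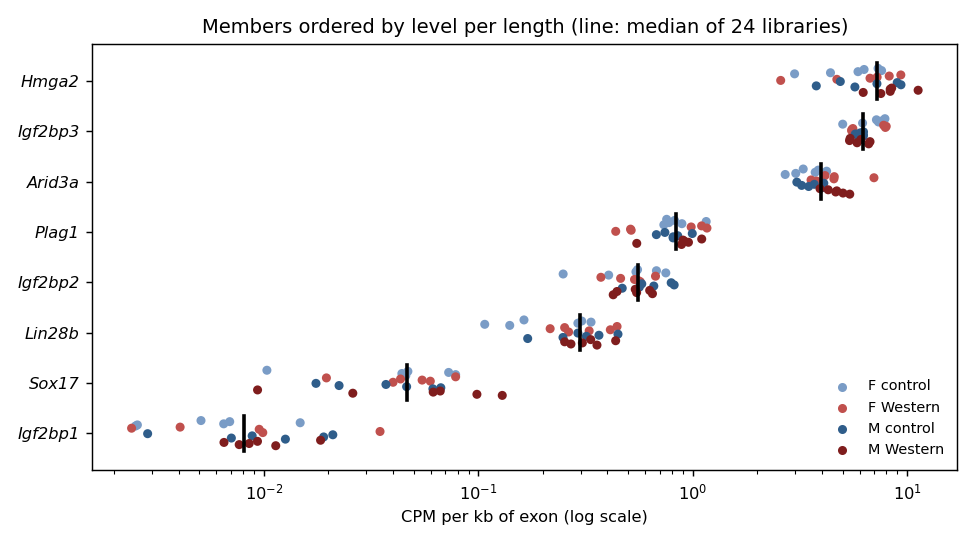
Level of each member in CPM per kb of exon (log scale), 1 point per library, coloured by group, with a line at the median of 24 libraries. Hmga2 and Igf2bp3 overlap at the top, Igf2bp1 is lowest, and its 1 library with 0 counts cannot be drawn on a log axis.

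The members also differed in how much they varied. The biological coefficient of variation, the spread between libraries of a group beyond counting error, was 0.148 for Igf2bp3, lower than in all but 12.7% of genes tested. It was 0.178 for Arid3a, 0.223 for Hmga2, 0.245 for Igf2bp2, 0.247 for Plag1, 0.283 for Lin28b and 0.413 for Sox17, against a common value of 0.261 over all genes. Sox17 rested on 2 to 28 counts per library and Lin28b on 39 to 204. Their intervals were the widest here, and the part of low counts in this was not tested.

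Among the 7 members tested for maternal diet, 1 passed in the average of both sexes, which was Arid3a, higher in the Western groups. edgeR called 5.7% of all 19616 genes in that average at an adjusted p under 0.05. DESeq2 and limma-voom each called 1 of 7 members as well. In females alone edgeR called 0 of 7 members where it called 5.42% of all genes, with Lin28b and Arid3a under an unadjusted p of 0.05, and in males alone 0 of 7 where it called 0.0102%, with Arid3a under 0.05. In both single-sex comparisons DESeq2 and limma-voom called 0. The median log2 fold change over all genes was 0.03 in females, 0.02 in males and 0.02 in the average. Library scaling largely fixes this median, so it is no check of the scale.

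The difference of the diet effects between the sexes was called for 0 of 7 members, and for 0% of all genes, by edgeR. At an unadjusted p under 0.05 it stood at 0 of 7 members and 1633 of 19616 genes, and DESeq2 and limma-voom called 0 members. No member is therefore described as changed in one sex and not in the other.

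**Figure D2:**
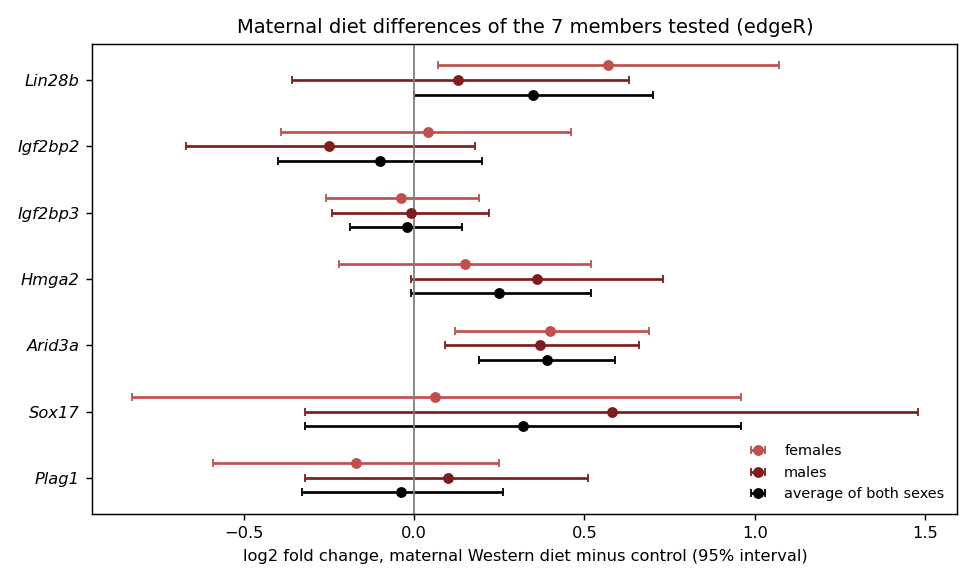
Log2 fold change of the 7 members tested, maternal Western diet minus control, with 95% intervals from edgeR, for females, for males and for the mean of both sexes. The interval of Arid3a lies above 0 in all 3 estimates, that of Lin28b in females, and Sox17 has the widest intervals.

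Lin28b, the let-7 blocker at the head of the axis, was read at 0.971, 2.06 and 3.04 CPM (lowest, median, highest) in female controls. In female Western libraries it was read at 1.96, 2.69 and 4.02 CPM. The 2 lowest female controls were the pair of batch 3 that stood apart. Values overlapped, with 3 of 6 controls below every Western library and 2 of 6 Western libraries above every control.

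In females the log2 fold change of Lin28b was 0.57 (SE 0.24, 95% interval 0.07 to 1.07, n = 6 per group), with an edgeR adjusted p of 0.177. Without that pair it was 0.32 (SE 0.26, adjusted p = 0.67). Within batches the Western minus control difference of mean log2(CPM + 0.5) was 0.48, -0.05 and 0.98 in batches 1, 2 and 3. In males, Lin28b spanned 1.54 to 4.06 CPM in controls (median 2.77) and 2.29 to 3.96 in Western libraries (median 2.90), and its log2 fold change was 0.13 (95% interval -0.36 to 0.63, edgeR adjusted p = 0.904). The male groups overlapped almost fully, with 3 of 6 Western libraries above the control mean. The diet effect on Lin28b in males minus that in females was -0.44 (SE 0.34, edgeR adjusted p = 0.714).

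Igf2bp1, Igf2bp2 and Igf2bp3 encode RNA-binding proteins that stabilise and direct mRNAs, and in blood IGF2BP3 is known as a fetal partner of LIN28B. Igf2bp1 was counted 0 to 13 times per library, with a median of 3.5. Its mean was 0.0619 ± 0.0437 CPM (SD, n = 6) in female controls, 0.0979 ± 0.123 in female Western, 0.115 ± 0.0681 in male control and 0.0998 ± 0.0416 in male Western libraries. An exact two-sided permutation test of log2(CPM + 0.5) within batches, whose smallest possible p is 0.00463, gave p = 0.685 in females and p = 0.694 in males for Igf2bp1. At this depth no diet difference of Igf2bp1 was detectable.

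Igf2bp2 was read at 1.84, 4.06 and 5.54 CPM in female controls and at 2.76, 4.04 and 4.96 CPM in female Western libraries (lowest, median, highest). The lowest control was again from the batch 3 pair. In males it was read at 3.47, 4.58 and 6.06 CPM in controls and at 3.15, 4.02 and 4.80 CPM in Western libraries, where 3 of 6 controls lay above every Western library. The log2 fold change of Igf2bp2 was 0.04 in females (95% interval -0.39 to 0.46, edgeR adjusted p = 0.95) and -0.25 in males (-0.67 to 0.18, adjusted p = 0.766). Its sign in females turned to -0.23 without the batch 3 pair.

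Igf2bp3 showed the tightest diet comparison of the family. It was read at 40.8, 59.3 and 64.2 CPM in female controls and at 44.9, 54.4 and 65.1 CPM in female Western libraries. Male controls lay between 46.7 and 51.0 CPM (median 50) and male Western libraries between 43.9 and 54.7 (median 48.6). The groups overlapped in both sexes, with 3 of 6 Western libraries above the control mean in each. Its log2 fold change was -0.04 in females (95% interval -0.26 to 0.19, edgeR adjusted p = 0.902) and -0.01 in males (-0.24 to 0.22, adjusted p = 0.983).

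The female Western libraries fell apart into a higher and a lower set for Igf2bp3. Both of batch 1 and 1 of batch 2 lay at 63.3, 65.1 and 64.5 CPM, and the other of batch 2 and both of batch 3 at 45.5, 45.0 and 44.9 CPM. Of the Igf2bp3 exons, 1529 of 8159 bp overlap exons of Malsu1 on the opposite strand. The library kit named in the labels does not mark strand, and no strand option of the counting is given. How reads of that stretch were counted is therefore not known.

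Hmga2 encodes an architectural chromatin protein that bends DNA and supports self-renewal of young stem cells. It was read at 20.2, 41.2 and 51.4 CPM in female controls and at 17.4, 47.2 and 63.2 CPM in female Western libraries. In males it was read at 25.5, 43.7 and 63.3 CPM in controls and at 42.2, 56.4 and 76.1 CPM in Western libraries. Female values overlapped over most of their range, while 3 of 6 male controls lay below every male Western library.

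The log2 fold change of Hmga2 with maternal Western diet was 0.15 in females (95% interval -0.22 to 0.52, edgeR adjusted p = 0.698). In males it was 0.36 (-0.01 to 0.73, adjusted p = 0.604). Within batches the male difference was 0.34, 0.23 and 0.56 and the female difference 0.37, 0.06 and -0.06 for batches 1, 2 and 3.

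Arid3a encodes a DNA-binding factor of B lymphoid and stem cells that acts downstream of LIN28B in fetal-type B cell development. In female controls it was read at 15, 19.4 and 23.4 CPM and in female Western libraries at 19.8, 24.1 and 38.9 CPM. In male controls it was read at 17, 19.9 and 22.7 CPM and in male Western libraries at 21.8, 26 and 30 CPM. In each sex all 6 Western libraries lay above the control mean, and the groups still overlapped: 3 of 6 female and 5 of 6 male Western libraries lay above every control of their sex.

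Averaged over both sexes Arid3a rose 1.31-fold with maternal Western diet (log2 fold change 0.39, SE 0.10, 95% interval 0.19 to 0.59, n = 12 per diet, edgeR adjusted p = 0.0192). The estimate was 0.40 in females (SE 0.14, interval 0.12 to 0.69, adjusted p = 0.0888) and 0.37 in males (SE 0.14, interval 0.09 to 0.66, adjusted p = 0.452). The difference between the sexes was -0.03 (SE 0.20, interval -0.43 to 0.38, adjusted p = 0.972). Within batches 1, 2 and 3 the difference was 0.29, 0.50 and 0.35 in females and 0.21, 0.43 and 0.46 in males, so all 6 within-batch differences of Arid3a were above 0.

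The Arid3a call was lost in several settings, with the estimate above 0 in each. It was lost without batch 1 (0.43, adjusted p = 0.064), batch 2 (0.32, 0.126) or batch 3 (0.37, 0.169), without male control replicate 4 (0.34, 0.0503) or male Western replicate 6 (0.33, 0.0643), and without the pair of female controls that stood apart (0.32, 0.122). Without female Western replicate 3, the library at 38.9 CPM, the log2 fold change was 0.31 (adjusted p = 0.0315).

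Markers of other cells moved with diet beside Arid3a. The summed level of 10 mature erythroid markers was 1260 to 8620 CPM in female controls and 675 to 2820 in female Western libraries. It was 2600 to 6950 CPM in male control and 935 to 3190 in male Western libraries. Of the 10 markers, edgeR called 8 as lower in the average over both sexes, where it called 5.7% of all genes. None of these markers was at 0 in all libraries. With their mean log2 CPM as a covariate the Arid3a log2 fold change was 0.13 (SE 0.17 against 0.10 without it, edgeR adjusted p = 0.82). The erythroid markers differed by diet themselves, so this covariate overlaps the diet term and cannot be separated from it. The summed level of 11 B cell markers was 384 to 1210 CPM in female controls, 533 to 2300 in female Western, 671 to 1370 in male control and 839 to 1320 in male Western libraries, with 2 of 11 higher in the average (0 without the female control pair), and with them as a covariate the Arid3a value was 0.31 (adjusted p = 0.141). With the stromal and bone markers it was 0.40 (adjusted p = 0.0135). These 3 covariates were added after the values were seen.

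Sox17, a transcription factor required by fetal and neonatal blood stem cells and also made by endothelium, was near the lower limit of detection. Its mean was 0.237 ± 0.116 CPM in female controls, 0.235 ± 0.0951 in female Western, 0.200 ± 0.096 in male control and 0.311 ± 0.212 in male Western libraries. The log2 fold change of Sox17 was 0.06 in females (95% interval -0.83 to 0.96, edgeR adjusted p = 0.96) and 0.58 in males (-0.32 to 1.48, adjusted p = 0.737). Summed endothelial markers spanned 177 to 262 CPM in female controls, 205 to 353 in female Western, 216 to 333 in male control and 261 to 360 in male Western libraries, and their part in the Sox17 level was not tested. Of the Sox17 exons, 804 of 4772 bp overlap a transcript on the other strand.

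Plag1, a zinc-finger activator of growth genes including Igf2, was read at 6.22, 6.77 and 9.80 CPM in female controls and at 3.71, 6.36 and 9.88 CPM in female Western libraries. Male controls lay between 5.74 and 8.44 CPM (median 6.87) and male Western libraries between 4.65 and 9.34 (median 7.70). The female Western libraries again separated, with 9.33, 8.34 and 9.88 CPM in the libraries that were high for Igf2bp3 and 4.35, 4.38 and 3.71 CPM in those that were low. The log2 fold change of Plag1 was -0.17 in females (95% interval -0.59 to 0.25, edgeR adjusted p = 0.696) and 0.10 in males (-0.32 to 0.51, adjusted p = 0.918).

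**Figure D3:**
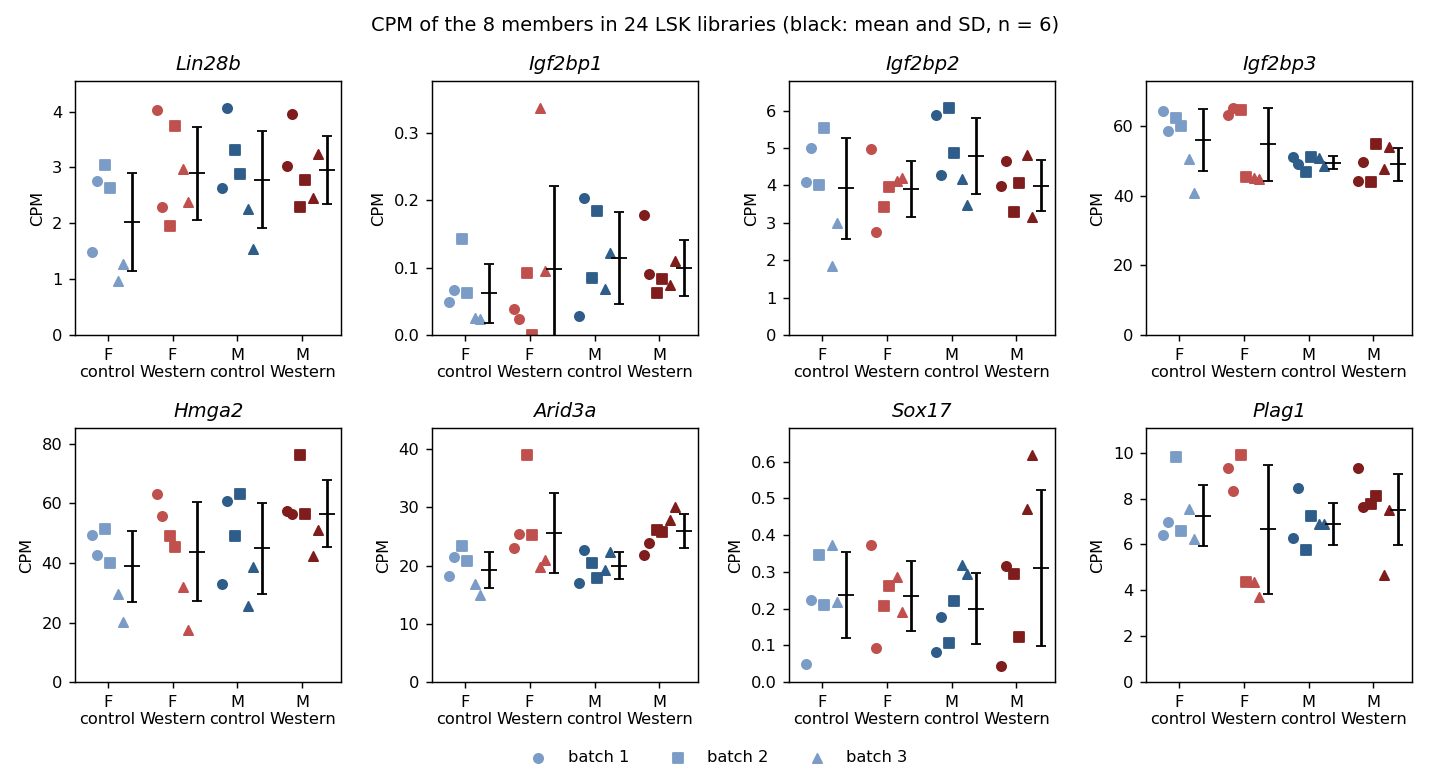
CPM of each member in every library by sex (F, M) and maternal diet, with batch as the symbol and the group mean and SD (n = 6) in black; the lower bar of Igf2bp1 in female Western libraries runs below 0 and is not drawn in full. All 8 members overlap between diets, Arid3a is shifted upward in both sexes, and Igf2bp3 and Plag1 each show 3 high and 3 low female Western libraries.

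**Figure D4:**
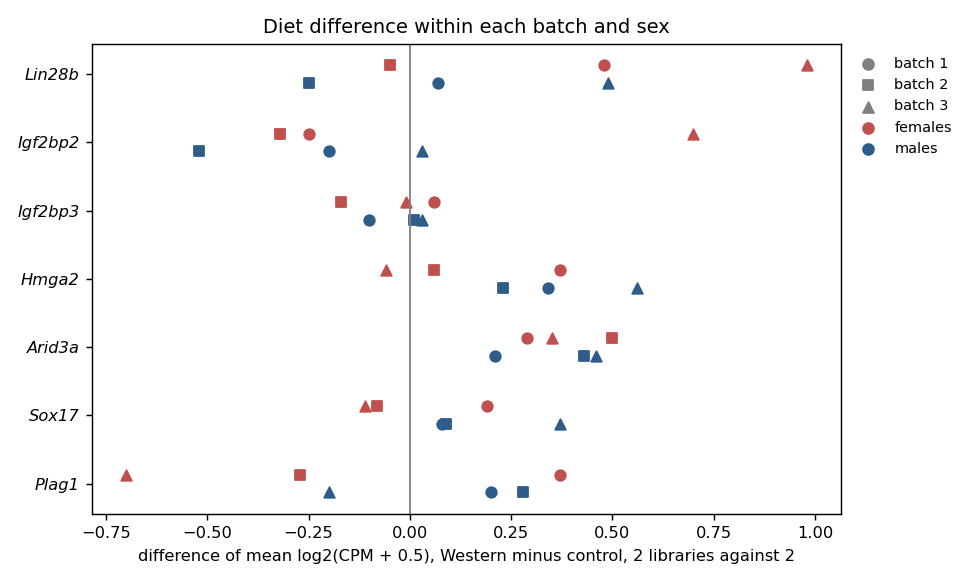
Difference of mean log2(CPM + 0.5), maternal Western diet minus control, within each batch (symbol) and sex (colour), 2 libraries against 2 at each point. All 6 Arid3a points lie above 0, from 0.21 to 0.50, while the points of Lin28b, Igf2bp2, Igf2bp3, Hmga2, Sox17 and Plag1 lie on both sides of 0.

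Sex, averaged over both diets, was called for 0 of 7 members by edgeR, where 0.184% of all genes passed. Hmga2 was under an unadjusted p of 0.05, and DESeq2 and limma-voom called 0. Hmga2 averaged 50.8 ± 14.1 CPM in 12 male libraries and 41.3 ± 14.1 in 12 female libraries, a male minus female log2 difference of 0.34 (SE 0.13, 95% interval 0.07 to 0.60, edgeR adjusted p = 0.274). For Igf2bp3 the log2 difference was -0.16 (SE 0.08, interval -0.32 to 0.01, adjusted p = 0.425), with 49.3 ± 3.36 CPM in males and 55.4 ± 9.27 in females.

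The labelled batches were then compared. Batch 3 was set against the mean of batches 1 and 2 in the same fit, a comparison added after the values were seen. edgeR called 1 of 7 members, Hmga2, where it called 21.4% of all genes, and 5 of 7 members had an unadjusted p under 0.05, as did 6686 of all 19616 genes. DESeq2 and limma-voom each called 3 members.

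Hmga2 was read at 17.4, 30.7 and 51.0 CPM (lowest, median, highest) in the 8 libraries of batch 3 and at 33, 53.6 and 76.1 CPM in the other 16. Of the batch 3 libraries, 5 of 8 lay below every other library. Its log2 difference was -0.76 (SE 0.14, 95% interval -1.05 to -0.47, edgeR adjusted p = 0.000549), a level 1.70-fold lower, and without the female control pair it was -0.71 (adjusted p = 0.00802). Lin28b averaged 3.03, 2.83 and 2.14 CPM in batches 1, 2 and 3, with a log2 difference of -0.51 (adjusted p = 0.0534), which was -0.31 (adjusted p = 0.345) without that pair. Sox17 had the opposite sign, with means of 0.170, 0.221 and 0.346 CPM and a log2 difference of 0.80 (adjusted p = 0.0766).

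Among cell markers, 8 of 12 LSK and 9 of 11 B cell markers fell in batch 3 and none of either list rose, and without the female control pair 5 and 8 fell. Of the other lists, 5 of 10 T and NK, 4 of 9 neutrophil and 2 of 10 macrophage and dendritic markers fell, and without that pair 1, 2 and 0. Of 10 mature erythroid markers 5 fell and 3 rose, and without that pair 0 fell and 1 rose. Megakaryocyte markers rose in 2 of 8 and fell in 1, endothelial rose in 2 of 12 and fell in 1, and stromal and bone fell in 2 of 14. Without that pair 1, 2 and 0 of these 3 lists rose and 0, 0 and 1 fell. Of all genes, edgeR called 21.4% in this comparison. Summed LSK markers had medians of 2090, 2390 and 1790 CPM and summed B cell markers 1190, 935 and 755 CPM in batches 1, 2 and 3. With the B cell markers as a covariate the Hmga2 batch difference was -0.60 (SE 0.27 against 0.14 without it, edgeR adjusted p = 0.624). The B cell markers differed by batch themselves, so this covariate overlaps the batch term and cannot be separated from it. The Hmga2 difference was -0.86 (adjusted p = 0.000977) with the erythroid and -0.76 (adjusted p = 0.00066) with the stromal and bone markers, both called.

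**Figure D5:**
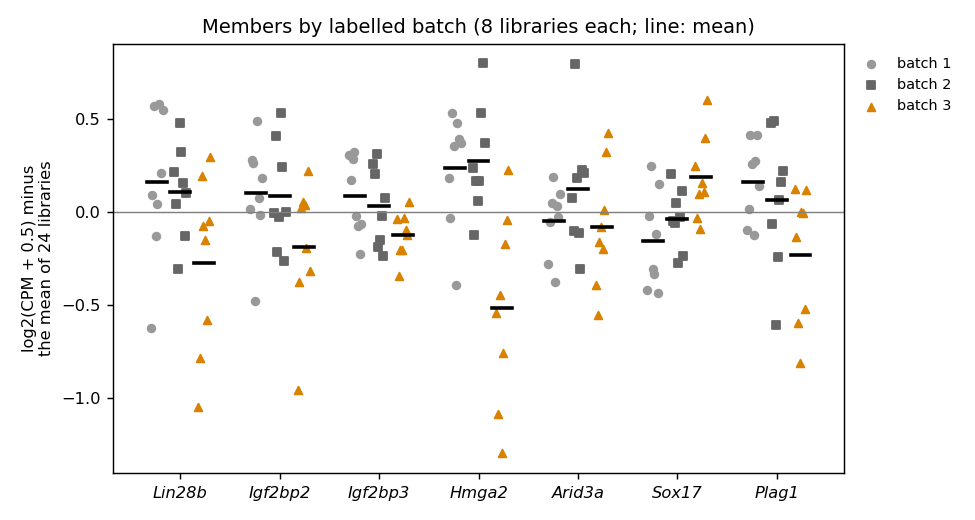
Each tested member as log2(CPM + 0.5) minus its mean over 24 libraries, by labelled batch (8 libraries each), with a line at the batch mean. Hmga2 is lowest in batch 3, where 5 of 8 libraries lie below every library of batches 1 and 2, and Sox17 has its highest mean there.

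Members were then compared with one another across libraries. All 21 pairs of the 7 members tested were correlated over 24 libraries on log2(CPM + 0.5), with permutation p-values adjusted over the 21 pairs. Hmga2 and Plag1 varied together, with r = 0.59 (permutation p = 0.00223, adjusted 0.0234) and rho = 0.67 (permutation p = 0.00039, adjusted 0.00819). Within batches 1, 2 and 3 their r was 0.82, 0.31 and 0.39, with group and batch means removed it was 0.46, and without the 2 libraries farthest from the Hmga2 median it was 0.46.

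Lin28b and Igf2bp2 had r = 0.62 (permutation p = 0.00145, adjusted 0.0234) and rho = 0.45 (permutation p = 0.0283, adjusted 0.119). Within batches 1, 2 and 3 their r was 0.31, 0.48 and 0.72, and with group and batch means removed it was 0.59. The 2 libraries farthest from the Lin28b median were the female control pair of batch 3. Without that pair the pooled r was 0.34 (adjusted permutation p = 0.514), so the pooled relation rested on those libraries. Lin28b and Hmga2 had r = 0.49 (permutation p = 0.0158, adjusted 0.0736), and with group and batch means removed it was 0.04. None of the other 18 pairs passed by r or by rho.

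For each tested member the 3 genes with the most similar profile were found among the 19615 others, as Pearson r over 24 libraries after batch means were removed. The libraries differ in their levels of erythroid and B cell markers, so these values only describe. Lin28b was closest to Supt3 (0.85), AI504432 (0.83) and Arid5b (0.82), and Igf2bp2 to Ctsw (0.89), Tpm2 (0.84) and Cdo1 (0.82). Hmga2 was closest to Sh3rf1 (0.89), Msi2 (0.87) and Nbeal2 (0.82), and Arid3a to Bace1 (0.89), Ankrd44 (0.88) and Nav2 (0.87). Igf2bp3 reached at most 0.74 (Shroom1, then Abhd10 and Mthfs at 0.73), Plag1 0.83 (Odf3b, then 6330403K07Rik and Fbxo32 at 0.82) and Sox17 0.73 (Hoxb5, then Gm37466 at 0.67 and Brsk1 at 0.66).

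Genes of 6 lists around the members were then read, with 129 distinct genes tested. In females edgeR called 12 of these 129 (6 higher, 6 lower), where it called 5.42% of all genes. DESeq2 called 17 as higher and 8 as lower, and limma-voom 3 and 6. Without the female control pair of batch 3 edgeR called 2, Socs2 as higher and 1 gene as lower. In the average, where 5.7% of all genes passed, it called 14, and 5 without that pair, Socs2 as higher and 4 as lower, Aldh1a1 and Klf1 among them. In males edgeR called 0 of 129 (0.0102% of all genes), with 12 under an unadjusted p of 0.05, while DESeq2 called 1 (Aldh1a1, lower) and limma-voom 2.

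The machinery around LIN28 and let-7 was read from a list of 20 genes, all tested. Tut4, one of the uridylating enzymes that LIN28 proteins recruit to let-7 precursors, rose in female Western pups (log2 fold change 0.50, SE 0.14, edgeR adjusted p = 0.0363), from 45.4 to 62.8 CPM. It was the only 1 of the 20 genes called for diet in females, where edgeR called 5.42% of all genes. There limma-voom called 0 of the list, and without the batch 3 pair the Tut4 value was 0.41 (edgeR adjusted p = 0.312). In the average edgeR called 0 of 20, with 6 under an unadjusted p of 0.05, while DESeq2 called 2 (Dis3l2 and Tut4) and limma-voom 1. The list's median log2 fold change in females was -0.04, against 0.03 over all genes. The abundant RNA-binding cofactors Hnrnpa1 and Syncrip stood at -0.08 and 0.12 in females with adjusted p of 0.776 and 0.559. In batch 3, where edgeR called 21.4% of all genes, it called 3 of the 20 as lower. These were Trim71, a let-7 target that degrades mRNAs, Ago4 and Tut4, at -1.75, -0.56 and -0.33 on the log2 scale. Trim71 and Ago4 kept the call without the female control pair.

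Of 47 genes listed as let-7 targets, 45 were tested, among them the members Lin28b, Igf2bp2, Igf2bp3, Hmga2, Arid3a and Plag1. Igf2bp1 was below the filter, and the 3′ UTR of Plag1 searched above held no copy of the motif. In females edgeR called 2 of the 45 as lower and 0 as higher, where it called 5.42% of all genes. In the average, where it called 5.7% of all genes, it called 2 as lower and 1, Arid3a, as higher. Without the batch 3 pair it called 1 as lower in females and 2 in the average, with 0 higher in both. In females DESeq2 called 5 as higher (Ccnd2, Cdk6, Map4k3, Nr6a1 and Stard13) and 2 as lower, and limma-voom called 0 and 2. The list's median was 0.09 in females and 0.04 in the average, against 0.03 and 0.02 over all genes. The most abundant targets, Cdk6 and Ccnd2, both cell cycle drivers, had female edgeR values of 0.65 (adjusted p = 0.0599) and 0.41 (adjusted p = 0.0775).

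Of 27 other genes linked to fetal blood stem cells, 23 were tested. The 4 below the filter were Igf2, the fetal growth factor that gave the IGF2BP family its name, with at most 4 counts in a library, and the embryonic globins Hba-x, Hbb-y and Hbb-bh1, with at most 15, 9 and 5 counts. Klf1, the erythroid master regulator, fell in females from 603 to 202 CPM (log2 fold change -1.33, SE 0.29, edgeR adjusted p = 0.00839), and Hmgb3, a chromatin protein of progenitors, from 538 to 351 CPM (-0.57, SE 0.13, adjusted p = 0.0132). Both fell in the average and 0 rose. Of all genes, edgeR called 5.42% in females and 5.7% in the average. Without the batch 3 pair Klf1 was at -1.15 in females (adjusted p = 0.123) and kept its call in the average (-0.88, adjusted p = 0.032), and Hmgb3 was called in neither (-0.37 and -0.23, adjusted p = 0.256 and 0.193). Klf1 is an erythroid gene, and the mature erythroid markers given with Arid3a were lower in the same libraries. Cdca7, a target of MYC, stood at 0.28 in females (adjusted p = 0.207).

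Among 28 genes that mark adult stem cells, all tested, 3 rose and 1 fell in females, where edgeR called 5.42% of all genes. In the average, where it called 5.7% of all genes, 5 rose and 1 fell. Socs2, a brake on cytokine signals, rose from 14.4 to 26.1 CPM in females (log2 fold change 0.83, SE 0.17, edgeR adjusted p = 0.00516). Ifitm1 (1.00, adjusted p = 0.0309) and Klf6 (0.47, adjusted p = 0.0313) rose beside it, and Mllt3, a regulator of stem cell self-renewal, fell (-0.43, adjusted p = 0.0477). In the average Cebpa, the myeloid factor, and Klf4 also rose, by 0.75 and 0.42. Of these, Socs2 alone was called without the batch 3 pair, at 0.90 in females (adjusted p = 0.035) and 0.77 in the average (adjusted p = 0.00214). The list's median was 0.33 in females and 0.18 in the average, against 0.03 and 0.02 over all genes, and the 2 most abundant genes, H2-D1 and Junb, did not pass. The list overlaps stem cell lists of earlier results of these data, so its direction is not independent evidence. In the sex comparison, where edgeR called 0.184% of all genes, Nr4a1 was called as higher in males (0.85, adjusted p = 0.0118). There 0 genes of the list were called without the pair.

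Of 15 paralogs of the members, 14 were tested and Hmgb3, described above, was the only one called for diet, with the abundant Hmgb1 and Hmgb2 at 0.08 and -0.07 in females. Of 18 mRNAs known to be bound by IGF2BP proteins, 17 were tested. In females, where edgeR called 5.42% of all genes, 2 of them rose and 1 fell. Myb, a progenitor transcription factor, rose in females from 197 to 284 CPM (log2 fold change 0.52, SE 0.14, edgeR adjusted p = 0.0261). Aldh1a1, a retinaldehyde dehydrogenase, fell from 25.2 to 15.3 CPM (-0.81, SE 0.19, adjusted p = 0.0119). Both were also called in the average, where 5.7% of all genes passed, in the same directions. Without the batch 3 pair Myb was not called in females (0.51, adjusted p = 0.184) or in the average (0.36, adjusted p = 0.0835), and Aldh1a1 not in females (-0.80, adjusted p = 0.125) but in the average (-0.82, adjusted p = 0.00267). The most abundant genes of that list, Actb and Cdk6, did not pass.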

How the data were processed

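RNA from LSK cells of 24 pups was sequenced as polyadenylated RNA, with 6 libraries in each of 4 groups of sex and maternal diet. The authors deposited whole-number counts of reads for each gene of each library. The tools named are cutadapt, FastQC, HTSeq, STAR and DESeq2, with the build GRCm39, per the submitters' processing notes. No version, annotation release or strand option is given in the sources used here. The library kit named in the labels (NEBNext Ultra Low Input) does not mark strand. Summary rows of the deposited counts, which hold reads assigned to no gene, were left out, with 31.04 to 39.26% of a library's counts (median 34.82%). Symbols, chromosomes and exon lengths came from GENCODE M21 (GRCm38, an older build), which matched 52081 of 55414 identifiers. The 3333 genes without a symbol were kept under their identifier.

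The filterByExpr function (minimum count 10) left 19616 genes. edgeR 4.0.16 in R 4.3.3 was run with TMM scaling (factors 0.932 to 1.053) and a robust quasi-likelihood fit of group and batch, with Benjamini-Hochberg adjustment over all genes tested and a threshold of 0.05. The common coefficient of biological variation came to 0.261. The fit was tested on simulated data. Igf2bp1 and pairs of members were tested with permutations on log2(CPM + 0.5), 100000 for pairs. No 2 libraries agreed within sampling noise, with chi-square values per degree of freedom of at least 19.1 between pairs.

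The members and gene lists were chosen with earlier results of these data known. Named genes were all members, genes of a list called in a comparison (up to 6 by smallest p), the 2 most abundant genes of each list, the most abundant gene of each marker list and markers at 0, and the 3 genes most similar to each tested member. Genes counted by tool or setting, and the 4 below the filter, were named after their values were seen. Some genes that this rule names are not reported here. Alternatives were DESeq2 1.42.0, limma-voom (limma 3.58.1), other scalings and filters, a fit without batch, the replicate number as a block, and leaving out libraries or batches. The 3 marker covariates, the batch 3 comparison and the centred correlations were added after the values were seen.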

Additional observations from a re-analysis of the deposited data

Results flagged for a closer look

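In 32 sets of 6 libraries (8 members in 4 groups), 4 held a library whose gap to its nearest neighbour exceeded 0.625 of the range of its group, which chance gives in about 1 of 20 sets. Arid3a was at 38.9 CPM (1688 counts) in female Western replicate 3, with the next library of that group at 25.4 CPM. Plag1 was at 9.80 CPM (480 counts) in female control replicate 3, with the next at 7.55 CPM. Igf2bp1 was at 0.143 CPM (7 counts) in the same female control library, with the next at 0.0671 CPM. It was at 0.337 CPM (13 counts) in female Western replicate 5, with the next at 0.0957 CPM. Both Igf2bp1 values rest on few counts.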

How the results depend on the processing

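The log2 fold change of Arid3a averaged over both sexes was above 0 in all 38 other settings, from 0.13 to 0.43, and its call was kept in 30 of them. The number of members called in that average fell from 1 to 0 without batch 1, batch 2 or batch 3, without both female control libraries of batch 3, and with the erythroid or the B cell markers as a covariate. With 1 library left out it ranged from 0 to 1. The number called in batch 3 was 3 by DESeq2 and by limma-voom, 2 with the erythroid and 0 with the B cell covariate, and 1 to 2 with 1 library left out. Without the female control pair 1 relation between members passed in place of 2.

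Of 42 results (member by comparison), 24 changed sign under some setting, none of them above 0.32 in size, and 0 of the 97 values of opposite sign were called by the tool of their setting. Reversed log2 values in females were as follows. Igf2bp2 stood at -0.15 (limma-voom), -0.01 (no batch term), -0.30 (without batch 3), -0.23 (without the pair) and -0.25 (B cell covariate). Igf2bp3 stood at 0.01 (limma-voom), 0.02 (without batch 2) and 0.01 (stromal covariate). Hmga2 stood at -0.03 (without batch 1) and -0.08 (erythroid covariate), Plag1 at 0.09 (without batch 3) and Igf2bp1 at -0.11 (without the pair). Sox17 stood at -0.01 (no batch term), -0.33 (without batch 1), -0.06 (without the pair), and -0.35, -0.48 and -0.03 with the erythroid, B cell and stromal covariates.

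In males Igf2bp3 was 0.02 without batch 1, Plag1 -0.02 without batch 2 and -0.39 with the erythroid covariate, Lin28b -0.10 without batch 3 and Igf2bp2 0.24 with the erythroid covariate. In the average Plag1 was 0.00 by limma-voom, 0.17 without batch 3 and 0.01 without the pair, Igf2bp3 was 0.00 by limma-voom, and Igf2bp2 was 0.07 without batch 2. With the erythroid covariate the averages were -0.01 for Hmga2, -0.15 for Sox17 and 0.34 for Igf2bp2. The difference between the sexes in diet effect was -0.02, -0.06, 0.00 and -0.06 for Igf2bp3 (limma-voom, without batch 2, without batch 3, stromal covariate), 0.03, 0.01, 0.08 and 0.15 for Arid3a (without batch 1, without batch 2, without the pair, B cell covariate) and 0.02 for Igf2bp2 (B cell covariate).

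For sex, Sox17 was 0.13 by limma-voom, 0.07 with no batch term, 0.11 and 0.20 without batch 1 and 2, and 0.17 and 0.23 with the erythroid and stromal covariates. Arid3a was -0.17 without batch 3, -0.03 without the pair, and -0.05 and -0.07 with the B cell and stromal covariates. Plag1 was -0.05 without batch 3 and -0.01 with the B cell covariate, and Igf2bp2 was 0.00 with the erythroid covariate. In batch 3 against the others, with the B cell covariate, Igf2bp3, Igf2bp2 and Arid3a were 0.05, 0.17 and 0.15. The cause of these reversals was not tested.

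With 1 library left out, ranges that crossed 0 were -0.11 to 0.12 (Igf2bp2), -0.11 to 0.02 (Igf2bp3) and -0.35 to 0.26 (Sox17) in females, -0.08 to 0.03 for Igf2bp3 in males and -0.13 to 0.02 for Plag1 in the average. They were -0.09 to 0.10 (Arid3a) and -0.05 to 0.10 (Igf2bp3) for the difference of diet effects, and -0.12 to 0.16 for Sox17 by sex. The number of all genes called ranged over the other settings from 124 to 2023 in females (main value 1064), 0 to 380 in males (2), 47 to 1784 in the average (1118), 0 to 572 for the difference (0), 10 to 967 for sex (36) and 1 to 5107 for batch 3 (4206).

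With the replicate number as a block Arid3a in the average was 0.39 (edgeR adjusted p = 0.0214), and the block changed no call of a member. Libraries with the same number in other groups had a median correlation of deviations of -0.14 (-0.5 to 0.28), with 6 of 36 pairs over 0.1, so the numbers were not taken to pair the samples. The counts of Sox17 and Igf2bp1 limit what a diet comparison of either can show.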
